A study of Mus musculus with 7 samples.

Results

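The miR-379/miR-410 cluster is the downstream group of miRNA genes of the imprinted Dlk1-Dio3 locus on mouse chromosome 12. Its assays were taken by name from a TaqMan plate: every mouse (mmu) or rat (rno) assay whose miRNA number is one of 30 numbers of the cluster. This gave 34 of the 375 miRNA assays on the plate, 29 for mouse and 5 for rat sequences, which cover 25 of the 30 numbers. The RNA came from primary myogenic progenitor cells (MPC) of C57BL/6J hind limb muscle at passage 3. MPC are the descendants of satellite cells that rebuild injured fibres by fusing into myotubes. For proliferation, cells on type I collagen stayed in growth medium (Ham's F-10 with 20% fetal serum and 10 ng/ml FGF-2) and were taken on days 2 and 5. For differentiation, cells on entactin, collagen IV and laminin adhered for 24 hours in growth medium (day 0), were then given DMEM with 2% horse serum, and were taken on days 0, 1, 2 and 5. Medium and coating therefore differ together between both courses, and the sex, age and number of the animals are not given in the labels. Every day is a column of the files with 4 rows, and values are threshold cycles (Ct), the PCR cycle at which an assay's signal appears, over a run of 40 cycles.

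As background, the hairpins of the cluster are cut from long noncoding transcripts of the maternal chromosome, downstream of Meg3, and each mature miRNA pairs with its targets mainly through its seed. The cluster is best known from neurons, where in rodents its transcription responds to the factor Mef2, a family that also drives muscle genes, and from pluripotent stem cells. In muscle, work in mice has tied the locus to regeneration.

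Mature sequences of 27 of the 29 mouse assays were found in RefSeq (GRCm38.p6). They lie on the + strand within chr12:109709065-109743784, a stretch of 34720 bases, and 8 of the 27 lie inside the annotated long noncoding RNA gene Mirg, while the other 19 lie between Rian, another long noncoding RNA gene, and Mirg. The RefSeq table used here has no entry for miR-376c-3p or miR-487b-3p. An arm was part of the assay's name for 8 of the 27, and for the other 19 it was taken from the current names of older miRNAs. All 27 seeds differ from each other. The sequences below are those of the members the results turn on, written 5′ to 3′ with the seed (bases 2 to 8) in capitals. They are the most abundant members (miR-379, miR-411 and miR-409-3p), those with the largest or steadiest differences (miR-666-5p, miR-668, miR-382, miR-323-3p, miR-381 and miR-410), both measured arms of miR-369, and miR-376a beside miR-376b.
mmu-miR-379-5p: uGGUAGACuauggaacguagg
mmu-miR-411-5p: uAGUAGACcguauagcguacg
mmu-miR-323-3p: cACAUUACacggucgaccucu
mmu-miR-666-5p: aGCGGGCAcagcugugagagcc
mmu-miR-376b-3p: aUCAUAGAggaacauccacuu
mmu-miR-376a-3p: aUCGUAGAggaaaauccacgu
mmu-miR-381-3p: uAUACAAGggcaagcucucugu
mmu-miR-382-5p: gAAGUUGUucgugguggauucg
mmu-miR-668-3p: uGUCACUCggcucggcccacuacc
mmu-miR-409-3p: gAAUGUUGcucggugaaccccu
mmu-miR-369-5p: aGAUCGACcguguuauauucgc
mmu-miR-369-3p: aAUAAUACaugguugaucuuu
mmu-miR-410-3p: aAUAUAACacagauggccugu
Among the 13, mmu-miR-376a-3p (chr12:109723824-109723844) and mmu-miR-376b-3p (chr12:109723508-109723528) are of equal length and differ by the 3 substitutions G4A, A13C and G20U, written as the miR-376a base, the position from the 5′ end, and the miR-376b base. The first of them lies in the seed. A TaqMan assay for one of them may pick up some of the other, and the files do not show how well these assays separate them.

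All levels are given as ΔCt, the Ct of an assay minus that of MammU6, a small nuclear RNA, in the same row, so that 1 cycle less means about 2 times as much miRNA. Changes are given on the log2 scale, later day minus earlier day, with the standard error (SE) of a limma fit. The threshold for a call was 0.05 on p-values adjusted by Benjamini and Hochberg's method, with every tested miRNA assay of the plate in the adjustment. Rows at the same position deviated together within each course, so counts from a fit with row position as a block stand beside those of the fit without it. Every change was also computed against the row median of the 221 miRNA assays with a Ct in all 24 rows, since with a shift of many miRNAs at once the reference decides the sign of small changes. MammU6 came up between 12.30 and 13.85 cycles, latest in row 1 of each differentiation day and in row 2 of both proliferation days. Row 4 of proliferation day 2 had the highest ΔCt of its day for most members, with a mean of 15.12 over the 19 members measured everywhere, against 13.65, 13.65 and 14.05 in the other rows. Leaving out row 2 of proliferation day 2 raised the calls between the proliferation days from 18 to 94 over all assays. The summed level of 6 muscle miRNAs (miR-1, miR-133a, miR-133b, miR-208b, miR-499 and miR-486), per 1000 MammU6 and assuming doubling at each cycle, was 187 to 361 on day 0 and 2629 to 4236 on day 5 of differentiation. It was 155 to 248 on day 2 and 241 to 690 on day 5 of proliferation. All 5 assays for fibroblast and smooth muscle miRNAs had a Ct on every day, and their sum was 19.0 to 48.7 on day 0, 22.0 to 49.7 on day 5 of differentiation and 36.8 to 79.9 on day 5 of proliferation. Of 4 neuronal miRNAs, miR-9 and miR-128a had a Ct in every row. In differentiation miR-124 had a Ct in 2 of 4 rows on day 0, in none on days 1 and 2 and in 1 on day 5. In proliferation it had a Ct in 3 rows of each day, at a mean of 29.3 on day 2 and 36.0 on day 5. The sum of the neuronal list was 0.362 to 0.832 on day 0 and 3.39 to 7.62 on day 5 of differentiation. In proliferation it was 0.251 to 0.515 on day 2 and 0.640 to 1.74 on day 5. miR-9 was a small part of the differentiation sums, at a mean ΔCt of 16.9 on day 0 and 13.6 on day 5. Sums on days 0 and 5 of differentiation were 0.538 to 1.30 and 1.15 to 2.12 for 2 endothelial assays. They were 0.0544 to 0.140 and 0.0586 to 0.114 for 5 blood cell assays, and 0.359 to 0.698 and 0.239 to 0.422 for 7 epithelial assays. The part of other cells in the changes below was not tested, and in bulk RNA fewer cells of a type and less RNA per cell cannot be told apart.

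Of the 34 assays of the cluster 19 had a Ct in all 24 rows, 12 in some rows, and 3 (miR-679, rno-miR-409-5p and rno-miR-543) in none. Of all 375 miRNA assays on the plate 221 had a Ct in all rows and 67 in none. The share of the cluster with a Ct in all rows is near that of the plate and is not read as particular to it. The earliest was miR-411, with a mean Ct of 21.9 over all rows, followed by miR-409-3p at 22.3, miR-379 at 23.2, miR-376c at 23.6 and miR-410 at 25.0. The latest of the 19 was miR-376b at 31.6. The least abundant member with any Ct was miR-154, with a single Ct of 38.5 in row 1 of proliferation day 2. miR-377 had 2 Ct values, rno-miR-377 1 and miR-380-3p 7, all but 1 of these (33.8) at a Ct over 35, so that these assays show only that their miRNAs were near or below the limit of detection. The 12 partly detected assays gave a Ct in 24, 28, 33 and 32 of their 48 wells on days 0, 1, 2 and 5 of differentiation, and in 22 and 24 of 48 on the proliferation days.

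The most abundant members were close to each other, and different assays need not amplify equally well, so their order is a description. On day 0 miR-411 had ΔCt values of 8.69, 9.82, 10.49 and 9.62, and miR-409-3p of 8.80, 10.11, 9.74 and 9.84, so these 2 could not be put in order. On day 5 the values were 7.83, 8.52, 8.91 and 8.55 for miR-411 and 8.66, 9.40, 9.48 and 9.78 for miR-409-3p, which overlap only through row 3 of the former and row 1 of the latter. In cultured myoblasts miR-411 is known to repress the transcription cofactor YAF2. miR-379, at 11.02 ± 0.97 (mean and SD, n = 4 rows) on day 0 and 9.49 ± 0.54 on day 5, and miR-376c, at 11.40 ± 0.56 and 9.82 ± 0.29, came next, and their rows overlapped with each other on both days.

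**Figure D1:**
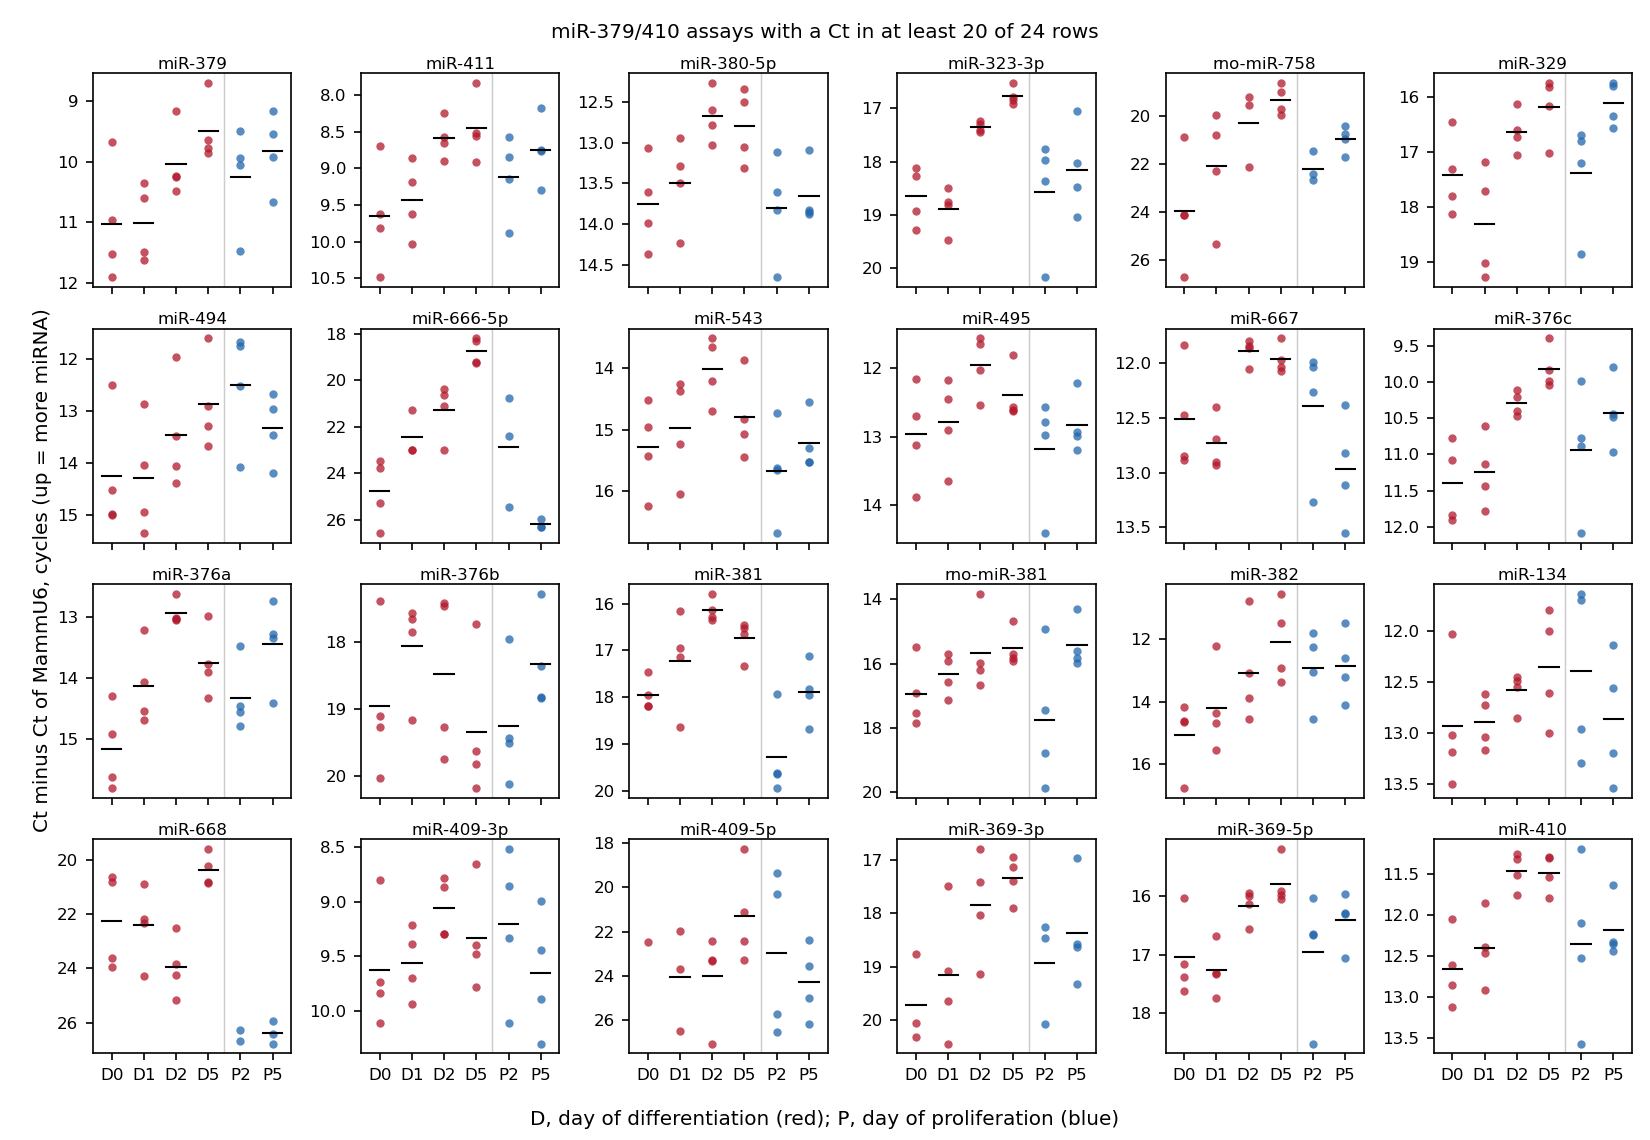
ΔCt (Ct of the assay minus Ct of MammU6, in cycles, axis turned so that up means more miRNA) of the 24 assays with a Ct in at least 20 of 24 rows, in the order of the hairpins, on days 0, 1, 2 and 5 of differentiation (D, red) and days 2 and 5 of proliferation (P, blue). Each point is a row, bars are means of days with at least 3 values, and each panel has its own scale. The means of miR-323-3p, miR-376c and miR-666-5p are higher on day 5 than on day 2 and on day 2 than on day 0 of differentiation, whereas that of miR-376a is highest on day 2.

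After 1 day in differentiation medium no change of the cluster passed the test after MammU6 without the block. None of its 21 tested assays was called in limma, against 2.10% of all 238 assays tested, and 1 was higher and 0 lower at an unadjusted p under 0.05. With row position as a block 1 was called, miR-376a at 1.03 ± 0.27 (adjusted p = 0.0305), against 10.9% of all assays. The median change was 0.23, beside 0.07 over all assays tested. Against the row median, where 17.6% of all assays were called, 1 member was called. This was miR-329, a neuronal activity-regulated miRNA in rat, which fell by 1.19 ± 0.31 (adjusted p = 0.0247) and was not called with day 0 row 3, or day 1 row 1 or 2, left out (-1.25 to -1.10). Its ΔCt was 16.46, 17.81, 18.13 and 17.32 on day 0 and 17.72, 19.02, 19.28 and 17.19 on day 1. After MammU6 the change of -0.87 ± 0.47 was not called, and the rows of both days overlap.

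By day 2 many members were higher after MammU6. All 23 tested assays had a positive change, as 16 did against the row median, 11 were called higher and none lower (47.8%, against 33.3% of all 243 assays tested), and the median was 1.10 beside 0.66 over all assays. With row position as a block 19 were called, against 62.1% of all assays. The called members were miR-323-3p, miR-369-3p, miR-376a, miR-376c, miR-380-5p, miR-381, miR-410, miR-411, miR-543, miR-666-5p and rno-miR-758. miR-376a had ΔCt values of 14.29, 15.62, 15.80 and 14.91 on day 0 and of 13.01, 13.05, 13.03 and 12.62 on day 2. Every row of day 2 had more of it than any row of day 0, and it rose by 2.23 ± 0.40 (4.68-fold, adjusted p = 0.000425). miR-381, a member whose mouse assay stands beside a rat one on the plate, went from 18.18, 18.18, 17.46 and 17.94 to 16.13, 16.29, 15.79 and 16.36, again with no overlap, a rise of 1.80 ± 0.42 (adjusted p = 0.00309). miR-323-3p went from 18.12, 18.26, 19.28 and 18.92 to 17.30, 17.23, 17.40 and 17.45, with no overlap and with the rows of day 2 close together. Its rise was 1.30 ± 0.30 (adjusted p = 0.00309). miR-410, which in mouse beta cells is known to affect insulin secretion, rose by 1.20 ± 0.30 (adjusted p = 0.0053), also with no overlap of rows.

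The 2 largest differences on day 2 came from assays near the end of the PCR range. Both miR-666-5p and rno-miR-758 had a mean Ct over 35 on day 0 and were tested only because of their day 2 level, so their values are a description, and 9 of the 11 called members had a mean Ct under 35 on both days. miR-666-5p had ΔCt values of 23.79, 23.47, 25.28 and 26.57 on day 0 and 23.00, 21.09, 20.64 and 20.36 on day 2, at a Ct of 32.9 to 36.9 on day 2. All rows of day 2 lay below those of day 0, the closest being row 1 of day 2, and the difference was 3.50 ± 0.69. The rat assay rno-miR-758 had 24.12, 20.88, 24.12 and 26.74 on day 0 and undetermined, 22.14, 19.54 and 19.21 on day 2. Its rows are spread over several cycles and overlap, and its difference of 3.67 ± 1.25 was not called with day 0 row 3 or 4, or day 2 row 3 or 4, left out (2.74 to 3.62). With its undetermined well set to 40 cycles it was 2.20 and was not called. miR-369-3p, which in human cells is known to act on the TNF mRNA, had 20.32, undetermined, 20.05 and 18.77 on day 0 and 17.42, 19.14, 18.04 and 16.80 on day 2, a rise of 1.86 ± 0.64 (adjusted p = 0.0354), not called with day 0 row 1 or 3, or day 2 row 1 or 4, left out (1.51 to 1.72).

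The calls of miR-323-3p, miR-376a, miR-381 and miR-410 kept their side of the threshold with any 1 row left out on day 2 or day 0. So did that of miR-666-5p, which was tested only because of its day 2 level and remains a description. Besides rno-miR-758 and miR-369-3p, 4 lost theirs. For miR-376c, at 1.10 ± 0.32, this was with day 0 row 2 or 3 left out (0.94 to 0.96). For miR-380-5p, at 1.08 ± 0.36, it was with day 0 row 2 or 3, or day 2 row 1 or 4, left out (0.88 to 1.06). For miR-411, at 1.06 ± 0.38, it was with day 0 row 2, 3 or 4, or day 2 row 1, 2 or 4, left out (0.79 to 1.08), and for miR-543, at 1.27 ± 0.47, with day 0 row 2, 3 or 4, or day 2 row 1, 3 or 4, left out (0.95 to 1.38). The number of members called was 5 without row 3 of day 0, 6 and 7 without row 4 and row 1 of day 2, and 17 without row 1 of day 0, the row with the latest MammU6 of that day. For these and the later counts with a row left out, shares of all assays called are not given. Such counts are not read as particular to the cluster. Set against the row median, for which 44.9% of all assays were called, 2 members remained called, both higher. These were miR-376a at 1.27 ± 0.28 (adjusted p = 0.00153) and miR-666-5p at 2.55 ± 0.91, the latter not called with day 0 row 1, 3 or 4, or day 2 row 2, 3 or 4, left out (1.96 to 2.57). The members' median lay 0.45 above that of all assays tested after MammU6, and 19 of 23 members lay above it.

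On day 5 of differentiation 14 of 24 tested members were called higher than on day 0 and none lower (58.3%, against 52.0% of all 246 assays tested). The share is near that of all assays and is not read as particular to the cluster. With the block 18 were called, against 71.5% of all assays. Of the 14, 12 had a mean Ct under 35 on both days, and miR-666-5p and rno-miR-758 were tested only because of their day 5 level. The median was 1.32 beside 0.89 over all assays. miR-666-5p had ΔCt values of 19.26, 18.19, 18.30 and 19.21 on day 5, against 23.47 to 26.57 on day 0. No row of either day came near the other, and the difference was 6.04 ± 0.70, at a Ct of 36.2 or more on day 0, near the detection limit, and of 30.8 to 33.0 on day 5. rno-miR-758 had 18.62, 18.99, 19.70 and 19.95 on day 5, all below its day 0 rows, a difference of 4.65 ± 1.17 from a mean Ct of 36.9 on day 0.

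miR-382 went from 14.16, 14.63, 16.76 and 14.66 on day 0 to 10.57, 11.49, 13.39 and 12.93 on day 5. It differed widely between the rows of each day, with row 1 lowest and row 3 highest on both days, and the days did not overlap: it rose by 2.96 ± 0.87 (7.77-fold, adjusted p = 0.0101). miR-323-3p reached 16.52, 16.78, 16.91 and 16.85, above every row of days 0, 1 and 2, and rose by 1.88 ± 0.30 (adjusted p = 8.77e-05). miR-376c went from 10.78, 11.90, 11.84 and 11.08 to 9.40, 9.99, 10.05 and 9.84, with no overlap, and rose by 1.58 ± 0.32 (2.99-fold, adjusted p = 0.000855). miR-410 rose by 1.18 ± 0.30 (adjusted p = 0.00436), about what it had gained by day 2. Also called with any 1 row of the 2 days left out were miR-376a at 1.41 ± 0.40 and miR-369-5p at 1.27 ± 0.36, beside miR-369-3p. The last had 17.13, 17.90, 17.40 and 16.95 on day 5, below every row it had on day 0, and rose by 2.37 ± 0.65 (adjusted p = 0.00726). The other 5 were not: miR-379 at 1.53 ± 0.48 was lost with day 0 row 3, or day 5 row 1, left out (1.23 to 1.27), and miR-411 at 1.20 ± 0.38 with day 0 row 3, or day 5 row 1, left out (0.92 to 0.99). miR-381 at 1.20 ± 0.42 was lost with day 0 row 2, or day 5 row 1, 2 or 4, left out (1.10 to 1.17), and miR-380-5p at 0.95 ± 0.35 with day 0 row 2 or 3, or day 5 row 1 or 4, left out (0.75 to 0.88). miR-329 at 1.24 ± 0.48 was lost with day 0 row 2, 3 or 4, or day 5 row 1, 2 or 3, left out (1.00 to 1.27).

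**Figure D2:**
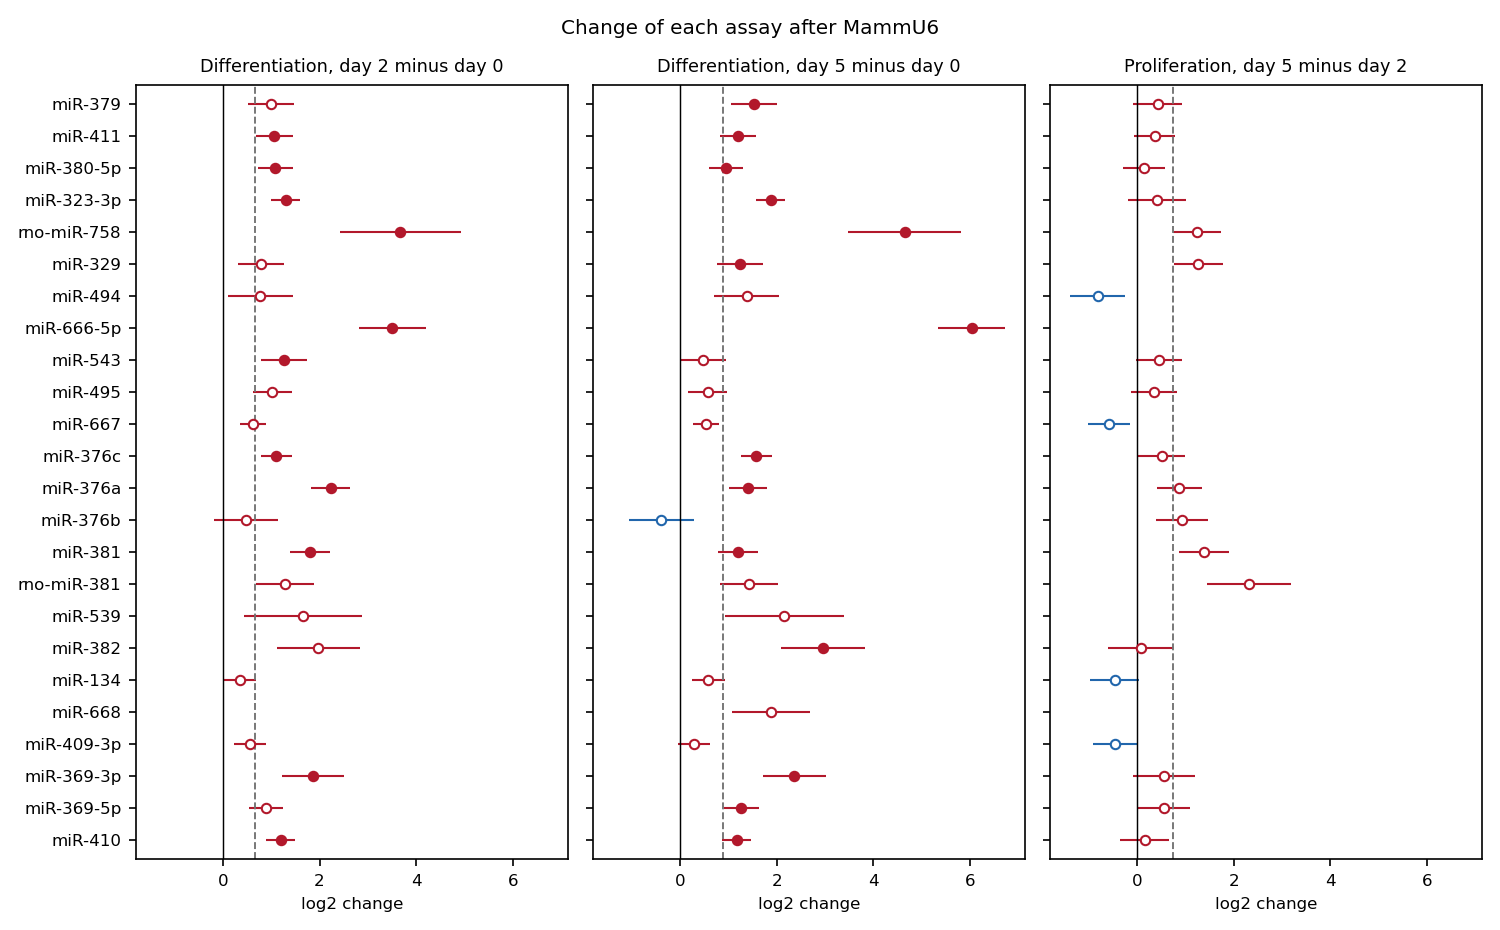
Log2 change after MammU6 of each tested member, in the order of the hairpins, for differentiation day 2 and day 5 against day 0 and for proliferation day 5 against day 2. Points are fitted changes with their SE, filled where called (11, 14 and 0 members), the solid line is 0 and the dashed line the median of all assays tested (0.66, 0.89 and 0.75). Most members lie to the right of the dashed line in the first 2 panels and to its left in the panel for proliferation.

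Members did not all change alike when the reference was a miRNA level. Against the row median, where 52.8% of all assays were called, 3 members were higher on day 5 than on day 0 and 3 were lower. The higher ones were miR-666-5p at 4.80 ± 0.91, rno-miR-758 at 3.41 ± 1.27, which was lost with day 0 row 1, 3 or 4, or day 5 row 1, 2, 3 or 4, left out (2.49 to 3.55), and miR-382 at 1.72 ± 0.65, which was lost with day 0 row 1 or 3, or day 5 row 1 or 2, left out (1.32 to 1.71). Of these, miR-666-5p and rno-miR-758 were tested only because of their day 5 level, so their values are a description with any reference. Of the lower ones, miR-409-3p fell by 0.95 ± 0.21 relative to the row median (adjusted p = 0.00147). After MammU6 it had ΔCt values of 8.80, 10.11, 9.74 and 9.84 on day 0 and 8.66, 9.40, 9.48 and 9.78 on day 5, a change of 0.29 ± 0.33 that was not called. miR-134, which in rat neurons is known to limit dendritic spine growth through Limk1, fell by 0.66 ± 0.25 relative to the row median (adjusted p = 0.0394), a call lost with day 0 row 1, 2, 3 or 4, or day 5 row 1 or 4, left out (-0.68 to -0.52), and after MammU6 its change was 0.58 ± 0.34. The same 3 were lower, and the same 3 plus miR-376c higher, when the mean of the 19 fully measured members was the reference (52.0% of all assays called). That reference gives each member's change relative to the cluster itself, and on day 2 against day 0 it put miR-376a and miR-666-5p above the cluster and miR-134 and miR-409-3p below it (51.4% of all assays called). Members miR-329, miR-380-5p, miR-381, miR-410 and miR-411, called higher on day 5 after MammU6, had changes of -0.0025, -0.285, -0.04, -0.07 and -0.04 against the row median, so that the direction of their change rests on the reference.

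**Figure D3:**
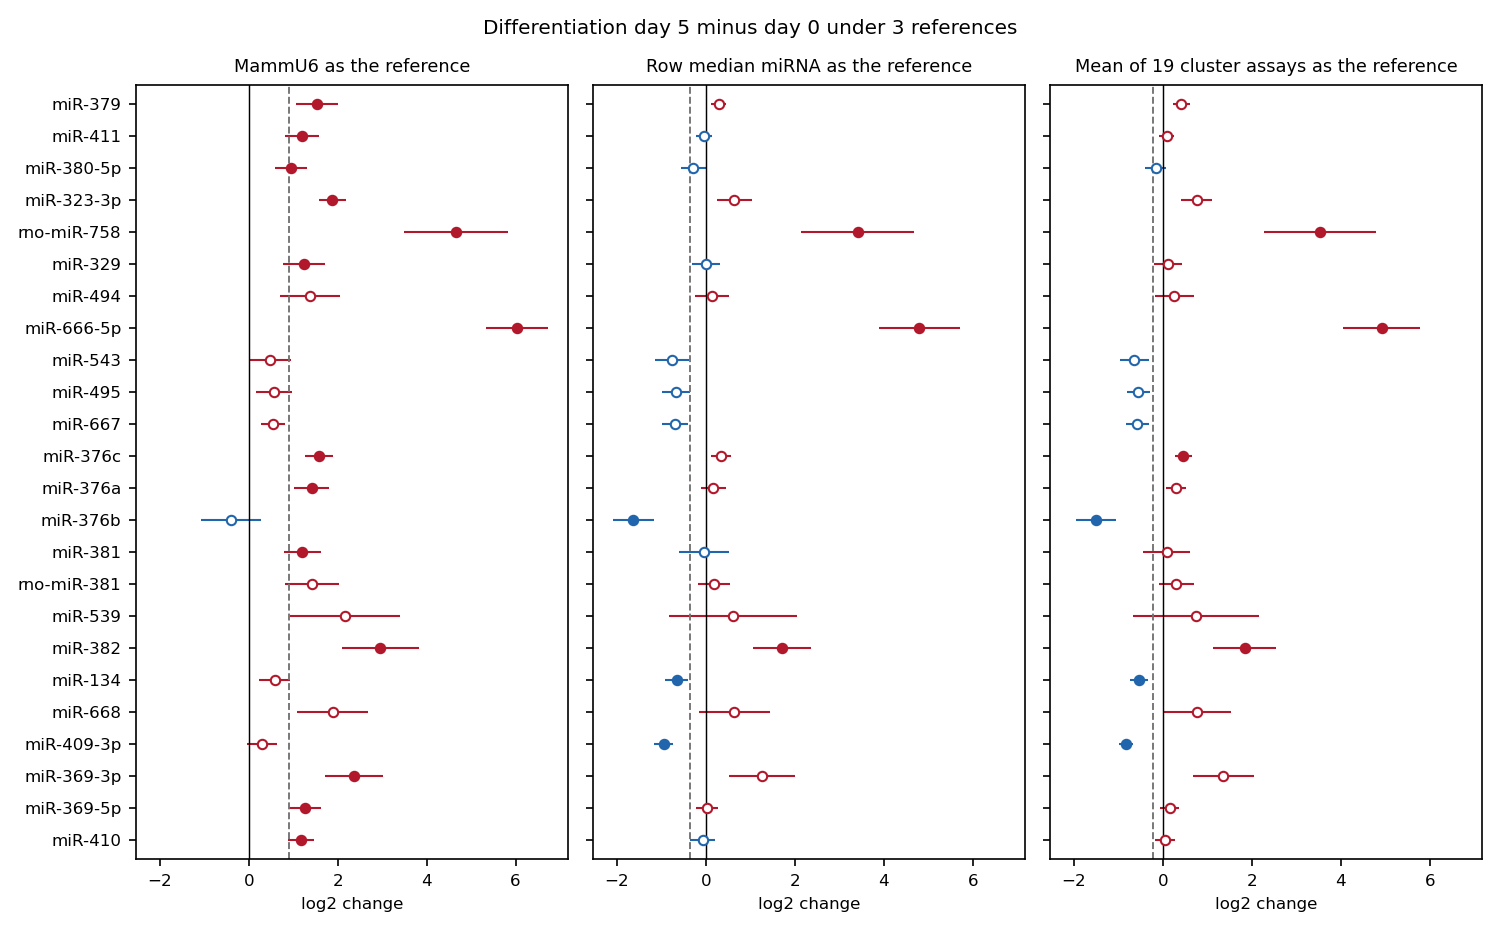
Log2 change from day 0 to day 5 of differentiation of the 24 tested members, in the order of the hairpins, with MammU6, the row median miRNA, or the mean of the 19 fully measured members as the reference. Points are fitted changes with their SE, filled where called, and the dashed line is the median of all assays tested. miR-376b, miR-134 and miR-409-3p are called lower with both miRNA references and uncalled with MammU6, while miR-666-5p is called higher in all 3. The latter and rno-miR-758 had a mean Ct over 35 on day 0 and were tested only because of their day 5 level, so their points are a description.

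The 3 members of the miR-376 family followed different courses. miR-376b had ΔCt values of 17.39, 19.11, 20.02 and 19.27 on day 0 and 17.73, 19.82, 19.63 and 20.18 on day 5, which overlap, and after MammU6 its change was -0.39 ± 0.67 and not called. Relative to the row median it fell by 1.63 ± 0.46 (adjusted p = 0.00774), with every row of day 5 below every row of day 0. miR-376a, after its rise by day 2, had 12.98, 13.90, 14.33 and 13.77 on day 5, a change from day 2 of -0.82 ± 0.40 after MammU6 that was not called. Relative to the row median it fell by 1.10 ± 0.28 from day 2 to day 5 (adjusted p = 0.00618). miR-376c had means of 11.40 ± 0.56, 11.24 ± 0.50, 10.30 ± 0.17 and 9.82 ± 0.29 on days 0, 1, 2 and 5 (SD, n = 4 rows). In brain RNA the seed of miR-376 family members is known to be changed by RNA editing, and whether these assays read edited forms was not tested.

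From day 1 to day 2, 5 of 24 members were called higher and none lower (14.5% of all assays called), namely miR-323-3p, miR-329, miR-369-5p, miR-410 and miR-667. With row position as a block 16 were called, all higher, against 53.1% of all assays. Of the 5, miR-323-3p, at 1.54 ± 0.30, kept its call with any 1 row left out. The count was 1 when day 1 lacked row 2 or 3 or when day 2 lacked row 1 or 2, and 2 when day 2 lacked row 3 or 4. Against the row median (17.4% of all assays called) 1 was called, miR-329 at 1.03 ± 0.32, lost with day 1 row 2 or 3, or day 2 row 2 or 3, left out (0.83 to 0.95). From day 1 to day 5, 10 of 25 were called higher and none lower (40.0%, near the 40.7% of all assays called), and 5 when day 1 lacked row 3, or 6 when it lacked row 2 or when day 5 lacked row 1 or 4. Of the 10, 9 had a mean Ct under 35 on both days. The other, miR-666-5p, was tested only because of its day 5 level, so its value is a description. With the block 16 were higher and miR-376b lower, against 69.5% of all assays. The 16 include miR-666-5p, miR-668 and miR-409-5p, all with a mean Ct over 35 on day 1. miR-329 went from its day 1 values to 15.75, 16.17, 15.83 and 17.02 on day 5, with no overlap, and rose by 2.11 ± 0.48 (adjusted p = 0.00276). Against the row median (48.6% of all assays called) 4 were higher and 2 lower, among them miR-329 at 1.19 ± 0.32 and miR-376b, which fell by 2.21 ± 0.46. The 4 include miR-666-5p, whose value is again a description.

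From day 2 to day 5 few members were called. Their median change was 0.30, beside 0.16 over all assays, and 2 of 26 members were called (14.2% of all assays), both at a late Ct. With row position as a block 4 were higher and 1 lower, against 38.1% of all assays: miR-382 at 0.98 ± 0.35 and miR-409-5p at 2.75 ± 0.70 were added, and miR-376a was lower at -0.82 ± 0.27. The assay for miR-409-5p had a mean Ct of 36.9 on day 2 and was tested only because of its day 5 level, so its value is a description. miR-668 had ΔCt values of 25.16, 24.26, 23.84 and 22.52 on day 2 and 20.84, 20.23, 20.82 and 19.61 on day 5, with a Ct of 35.1 to 39.0 on day 2. It was tested only because of its day 5 level, and the difference was 3.57 ± 0.81, with no overlap. On day 0 it had 20.83, 23.94, 23.63 and 20.63, which overlaps day 5, and on day 1 22.18, 24.27, 22.34 and 20.89. Its mean level was lowest on day 2, but the rows of day 2 overlap those of days 0 and 1. A fall to day 2 was not tested under the limit on Ct. miR-666-5p rose by 2.53 ± 0.70 (adjusted p = 0.0221), which was lost with day 5 row 2 or 3 left out (2.35 to 2.39). Relative to the row median (35.6% of all assays called) miR-668 was higher at 3.28 ± 0.80, and miR-376a and miR-543 were lower. miR-543, which fell by 1.07 ± 0.38 there, was lost with day 2 row 3 or 4, or day 5 row 2, 3 or 4, left out (-1.06 to -0.88).

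In growth medium calls between days 2 and 5 depended on the fit. Without the block, none of the 21 tested members was called in limma, with 4 higher and 0 lower at an unadjusted p under 0.05, while 17 of all 242 assays were called higher and 1 lower (7.44%). The median change was 0.42 beside 0.75 over all assays, and 6 of 21 members lay above the latter. The largest change was that of rno-miR-381, 2.32 ± 0.88 (adjusted p = 0.119), whose ΔCt was 18.79, 14.91, 19.87 and 17.43 on day 2 and 15.60, 14.29, 15.84 and 15.99 on day 5. The mouse assay for miR-381 gave 19.63, 17.93, 19.61 and 19.94 on day 2 and 18.68, 17.12, 17.95 and 17.83 on day 5, a change of 1.38 ± 0.52 (adjusted p = 0.119). In both, row 2 of day 2 had the lowest ΔCt of that day, and the days overlapped. Without row 2 of day 2, 3 members were called, and without row 4 of day 2, 1 member. Calls over all assays also rose without row 2 of day 2, as given above, and neither count is read as particular to the cluster. With row position as a block 5 were called higher and none lower, against 50.8% of all assays: miR-329 at 1.27 ± 0.34, miR-376b at 0.93 ± 0.26, miR-381 at 1.38 ± 0.27, rno-miR-381 at 2.32 ± 0.62 and rno-miR-758 at 1.24 ± 0.23. The last had a mean Ct of 35.1 on day 2 and was tested only because of its day 5 level, so its value is a description. The lowest change was -0.82 ± 0.57 for miR-494, known in mouse myoblasts as a regulator of mitochondrial genes. With the row median as the reference and no block (5.79% of all assays called) none was called, with 0 higher and 2 lower at an unadjusted p under 0.05.

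Both courses were compared on the same day. They differ in medium, in coating and in the 24 hours of adhesion before day 0 of differentiation, and these cannot be told apart. On day 2, 7 of 23 members were higher in differentiation than in proliferation and none lower (30.4%, near the 29.9% of all 241 assays). miR-381 stood out, with ΔCt values of 16.13, 16.29, 15.79 and 16.36 in differentiation and 19.63, 17.93, 19.61 and 19.94 in proliferation. No rows overlapped, and it was 3.13 ± 0.46 higher (8.78-fold, adjusted p = 1.33e-05). The rat assay, at 13.83, 16.67, 15.98 and 16.20 against 18.79, 14.91, 19.87 and 17.43, overlapped, and its difference of 2.08 ± 0.77 was not called with differentiation day 2 row 1, 3 or 4, or proliferation day 2 row 1, 3 or 4, left out (1.37 to 2.26). miR-376a, at 14.45, 13.48, 14.56 and 14.79 in proliferation, was 1.39 ± 0.42 higher in differentiation (adjusted p = 0.0135).

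miR-543 was 13.51 to 14.69 in differentiation and 15.63, 14.73, 15.65 and 16.68 in proliferation, a difference of 1.66 ± 0.47 (adjusted p = 0.00853), and both sets of rows stayed apart. miR-495, whose sequence resembles that of miR-543, was 11.65, 12.54, 12.03 and 11.56 in differentiation and 12.56, 12.78, 12.98 and 14.41 in proliferation, a difference of 1.24 ± 0.43, not called with differentiation day 2 row 1, 3 or 4, or proliferation day 2 row 4, left out (0.83 to 1.27). miR-323-3p, 17.96, 17.76, 18.36 and 20.17 in proliferation, was 1.22 ± 0.45 higher, not called with differentiation day 2 row 1, 2, 3 or 4, or proliferation day 2 row 3 or 4, left out (0.68 to 1.28). The other called member, miR-380-5p at 1.12 ± 0.37, was not called with differentiation day 2 row 4, or proliferation day 2 row 4, left out (0.84 to 0.99). The count of 7 was 3 without row 4 of differentiation day 2, and 4 without row 1 or 3 of that day or row 4 of proliferation day 2. Against the row median (52.7% of all assays called) 3 members were higher, miR-381 at 2.46 ± 0.51, rno-miR-381 at 1.40 ± 0.57, lost with differentiation day 2 row 1 or 3, or proliferation day 2 row 1 or 3, left out (0.76 to 1.32), and miR-543 at 0.98 ± 0.39, lost with differentiation day 2 row 3 or 4, or proliferation day 2 row 1, 2, 3 or 4, left out (0.79 to 1.06). One was lower: miR-494, at 11.97, 13.48, 14.39 and 14.06 in differentiation and 12.52, 11.68, 11.75 and 14.09 in proliferation, lay 1.65 ± 0.40 lower relative to the row median (adjusted p = 0.00196), while after MammU6 its difference of -0.96 ± 0.66 was not called.

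On day 5, 4 of 25 members were higher in differentiation and none lower (16.0%, against 28.9% of all 246 assays, of which 29 were higher and 42 lower). miR-666-5p had ΔCt values of 19.26, 18.19, 18.30 and 19.21 in differentiation and 25.99, undetermined, 26.31 and 26.33 in proliferation, where its Ct was 38.5 to 39.2 in the 3 rows with one. The difference of 7.47 ± 0.89 rests on 4 rows against 3, and setting the undetermined well to 40 cycles gave 7.51. miR-668 had 20.84, 20.23, 20.82 and 19.61 in differentiation and 26.78, undetermined, 25.96 and 26.41 in proliferation, a difference of 6.01 ± 0.81 over 4 rows against 3. Both were tested only because of their level in differentiation, and their proliferation level is at the detection limit, so both values are a description. The other 2 called members had a mean Ct under 35 in both media. miR-323-3p, at 16.52, 16.78, 16.91 and 16.85 in differentiation and 17.05, 19.04, 18.03 and 18.48 in proliferation, was 1.39 ± 0.45 higher, not called with proliferation day 5 row 2 or 4 left out (1.09 to 1.27). miR-667, at 12.03, 11.77, 12.07 and 11.97 in differentiation and 12.38, 13.55, 12.82 and 13.11 in proliferation, was 1.00 ± 0.31 higher, not called with differentiation day 5 row 2, or proliferation day 5 row 2, left out (0.81 to 0.94). Of the members 2 were called against the row median (49.6% of all assays called), miR-666-5p at 6.99 ± 1.02 and miR-668 at 5.53 ± 0.80. The median of the 25 members was 0.62 beside -0.07 over all assays, with 21 members above the latter.

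The change from day 2 to day 5 was called different between the media for 1 of 23 members, miR-666-5p (7.41% of all 243 assays). It went from 23.00, 21.09, 20.64 and 20.36 to 18.19 to 19.26 in differentiation, and from 20.78, undetermined, 22.39 and 25.45 to 25.99 or more in proliferation. The count was 2 without row 1 of differentiation day 5 or row 1 or 4 of proliferation day 5, and 4 without row 2 of proliferation day 2. The mean Ct of miR-666-5p was over 35 on both proliferation days. It was tested only because of its level in differentiation, so its values are a description. The difference of the 2 changes was 5.87 ± 1.24, and 5.03 and not called with undetermined wells at 40 cycles. With the row median in place of MammU6 (19.3% of all assays called) miR-666-5p was called again, at 6.35 ± 1.43, as were miR-494 at 1.89 ± 0.57, lost with differentiation day 2 row 3 or 4, or differentiation day 5 row 1, or proliferation day 2 row 3, or proliferation day 5 row 2 or 4, left out (1.56 to 1.76), and miR-376a, lower at -1.23 ± 0.43 and lost in 12 of 16 fits with 1 row left out (-1.29 to -0.99). These fits left out row 2, 3 or 4 of differentiation day 2, any row of differentiation day 5, row 1, 2 or 3 of proliferation day 2, or row 1 or 3 of proliferation day 5.

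**Figure D4:**
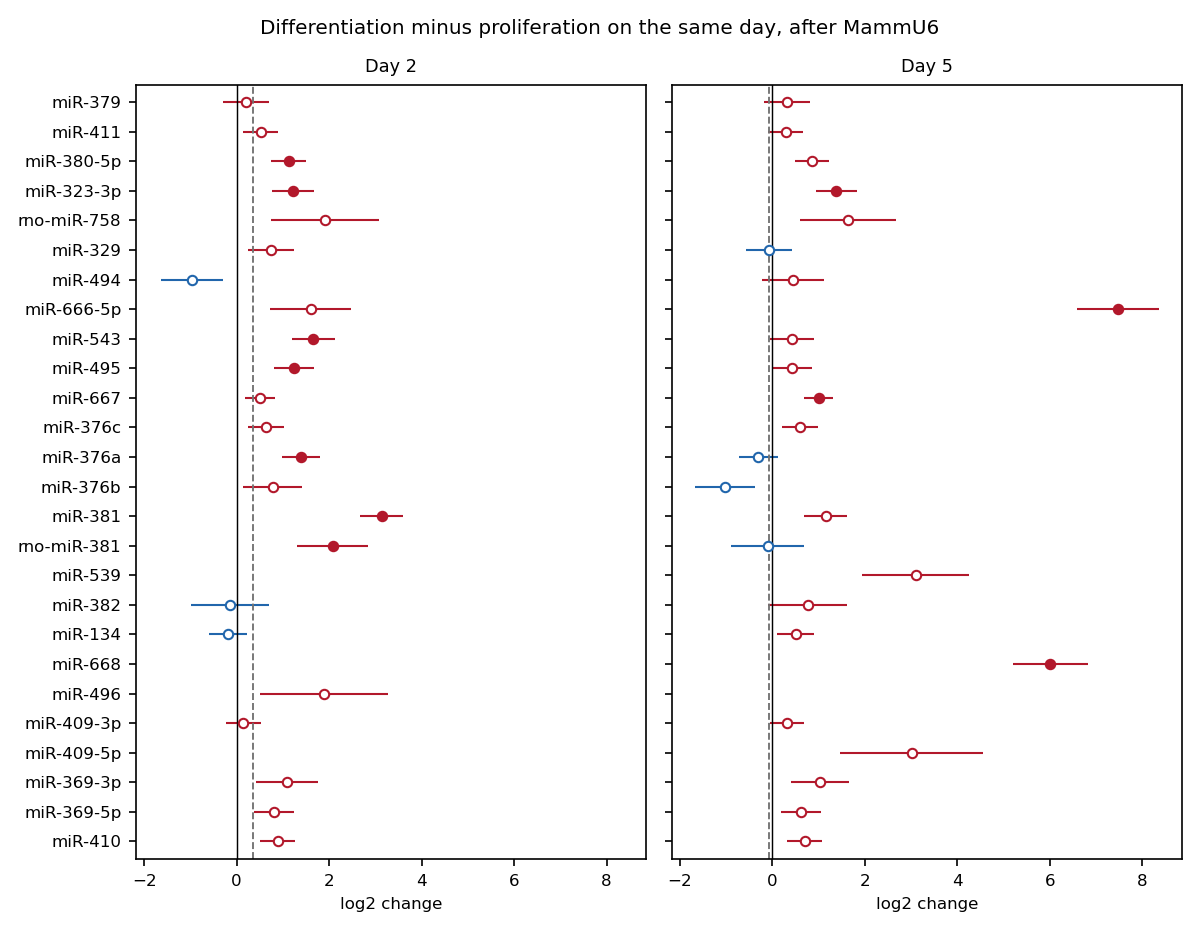
Log2 difference after MammU6, differentiation minus proliferation, of each tested member on day 2 and on day 5, in the order of the hairpins. Points are fitted differences with their SE, filled where called (7 and 4 members), the solid line is 0 and the dashed line the median of all assays tested (0.36 and -0.07). miR-381 leads on day 2, and miR-666-5p and miR-668 on day 5, where these 2 were tested only because of their level in differentiation.

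Both arms of a hairpin come from 1 precursor, and their Ct difference within a row needs no reference RNA. The plate has assays for both arms of 36 hairpins, 3 of them in the cluster. For miR-369 the 5p arm came up earlier than the 3p arm in every row with both: by 4.30, 2.66 and 1.14 cycles on day 0 and by 1.94, 1.85, 1.50 and 0.97 on day 5 of differentiation. The 5p arm had ΔCt values of 16.02, 17.16, 17.39 and 17.63 on day 0 and 15.19, 16.05, 15.90 and 15.98 on day 5, and the 3p arm of 17.13, 17.90, 17.40 and 16.95 on day 5. The change of the 3p arm against the 5p arm was 1.14 ± 0.81 (adjusted p = 0.255) from day 0 to day 5 and 1.01 ± 0.81 to day 2, neither called, while 8 of 19 pairs on the plate were called for the former (42.1%) and 7 of 19 for the latter (36.8%). In proliferation it was 0.52 ± 0.50, with 1 of 20 pairs called (5.00%). For miR-409 the 3p arm was the abundant one, by 9.61 to 17.8 cycles in the 20 rows with both, and the 5p arm had a Ct in 1, 3, 4 and 4 rows of days 0, 1, 2 and 5. On day 5 of differentiation its ΔCt was 18.27, 21.12, 23.31 and 22.41, and on day 5 of proliferation 22.37, 25.03, 23.58 and 26.21. Of the 3 comparisons for which arms were tested, its arms had enough rows in that of the proliferation days, where the change of 0.87 ± 1.37 was not called. The 3p arm was earlier by 14.56, 14.00, 17.78 and 13.54 cycles on day 2 of differentiation and by 9.61, 11.72, 13.83 and 12.63 on day 5, a smaller gap in each row position, which was not tested. The 5p arm of miR-380 came up at least 8.98 cycles before the 3p arm in the 7 rows with both.

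The mouse and rat assays for miR-381 differed from row to row. The rat assay was earlier by 2.69, 1.26 and 0.40 cycles in rows 1, 2 and 4 of differentiation day 0 and later by 0.39 in row 3. On proliferation day 2 the differences ran from 3.02 cycles earlier to 0.26 later. After MammU6 both assays had positive changes from day 0 to day 2 and to day 5 of differentiation. Against the row median the change of the mouse assay from day 0 to day 5 was slightly negative. Values for either are values of that assay.

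Across the 17 fully measured members with a RefSeq sequence, the change from day 0 to day 5 of differentiation was compared with distance from miR-379 (Pearson's r = -0.05, Spearman's rho = -0.23), with mean Ct (-0.03 and 0.13) and with GC content of the mature sequence (0.05 and 0.11). Between the proliferation days the same measures gave -0.17 and -0.09 for distance, 0.58 and 0.61 for mean Ct, and -0.59 and -0.52 for GC content. These describe 17 assays that share their wells' RNA and MammU6 values.

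Assays for the rest of the Dlk1-Dio3 locus, 15 on the plate with 9 measured in every row, were counted for comparison. On day 2 against day 0, 8 of 10 tested were called higher after MammU6 (33.3% of all assays called), with a median of 1.35, and 3 against the row median (44.9%), with a median of 0.40. On day 5, 7 of 10 were called higher after MammU6 (52.0% of all assays called), with a median of 1.02, and 2 against the row median (52.8%), with a median of -0.22. From day 2 to day 5 their median was -0.39, beside 0.30 for the members of the cluster, and this difference was not tested. After MammU6 2 of 11 were lower and none higher (14.2% of all assays called), and against the row median 4 were lower and 1 higher (35.6%). On day 2, 7 of 10 were higher in differentiation than in proliferation (29.9% of all assays called), and 3 against the row median (52.7%). On day 5 none was called in limma after MammU6 (28.9% of all assays called), with 3 higher and 0 lower at an unadjusted p under 0.05. Against the row median 1 was called higher (49.6% of all assays called), and against the row mean 6 (56.1%). Between the proliferation days none was called with any of these 3 references (7.44% of all assays called after MammU6 and 5.79% with each of the others). After MammU6 1 was higher and 0 lower at an unadjusted p under 0.05.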

How the data were processed

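Raw threshold cycles were deposited by the authors as 7 samples, each a pair of the 6 day columns with 4 rows each. These Ct values (a score in cycles, not normalized, per the file headers) came from TaqMan assays run for 40 cycles on a 7900HT instrument with TRIzol RNA, per the labels' protocols. The labels do not say whether rows are separate cultures, and p-values thus reflect the spread between these rows alone, which may be technical. Assays with a Ct in at least 3 of 4 rows of each day compared and a mean Ct under 35 on at least 1 of them were tested with limma 3.58.1 (R 4.3.3) on MammU6 Ct minus assay Ct. Differentiation days were fitted together, proliferation days separately, and comparisons of media over all 6 days. Deviations of rows at the same position correlated at over 0.1 for all 4 positions in 6 of 7 comparisons within a course (not day 5 against day 1 of differentiation, lowest 0.03). The labels give these rows no numbers, so this pairing comes from the data. Members and lists were chosen with earlier results of these data known. Every row's value is given for up to 6 members with the largest called rise and 3 with the largest called fall, for both arms of a hairpin, and for the most and least abundant member. Alternatives were other references, Ct filters, undetermined wells at 40 cycles, a block for row position and each row left out. The cluster mean, the row mean, and the row median with the block were chosen after seeing the data.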

Additional observations from a re-analysis of the deposited data

Results flagged for a closer look

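In 5 of the 138 sets of 4 rows looked at, 1 row stood apart by Dixon's ratio, the gap to the nearest row over the whole range. Chance flags about 1 in 20 such sets, or about 7 here. For miR-376a on differentiation day 2, row 4 was lowest at a ΔCt of 12.62, with 13.01 next (ratio 0.907). For miR-495 on differentiation day 5, row 1 was lowest at 11.80, with 12.56 next (ratio 0.927). On proliferation day 5, row 1 was lowest for miR-380-5p at 13.09, with 13.82 next (ratio 0.936), and for miR-410 at 11.64, with 12.33 next (ratio 0.863). For miR-381 on proliferation day 2, row 2 was lowest at 17.93, with 19.61 next (ratio 0.836).

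The change of miR-666-5p from day 2 to day 5 differed between the media, by 5.87 ± 1.24 (SE, limma), differentiation minus proliferation. It rests on 3 rows with a Ct on each proliferation day, at a mean Ct of 35.5 and 38.8. The assay passed the limit on Ct through differentiation alone, so the value is a description.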

How the results depend on the processing

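Of 54 member results past the threshold, 27 stayed past it with every row left out in turn. Both counts include results of miR-666-5p, rno-miR-758 and miR-668 that were tested only because of their level on the higher side. Those results are a description, and their staying past the threshold is not read as support. The number kept was 17 with the row median as the reference (6 reversed), 31 with the mean of the 4 other controls, 30 with the row mean, 20 with the cluster mean (5 reversed), 48 with the day mean of MammU6, 50 with no limit on Ct, 44 with undetermined wells at 40 cycles, 53 with at least 2 wells, 42 with only the days compared in the fit, and 41 of 41 still tested with a mean Ct under 32. For other changes of a call the cause was not tested. Counts of members called are given below in the order day 1, day 2 and day 5 against day 0, day 2 against day 1, day 5 against days 1 and 2, proliferation, day 2 and day 5 media, and the difference of changes, where a count moved by over 1.5 times. After MammU6 they were 0, 11, 14, 5, 10, 2, 0, 7, 4 and 1. With the row median they were 1, 2, 6, 1 and 6 for the first 5, then 4, 2 and 3 for the media and the difference of changes. With the other controls they were 4 (day 2 against day 0), 1 (day 2 against day 1), 1 (day 5 against day 2), 11 (day 5 media) and 2 (difference of changes). With the day mean of MammU6 they were 1 (day 5 against day 2), 2 (proliferation) and 2 (difference of changes). With no limit on Ct, 3 were called from day 1 to day 2. Under a mean Ct of 32, 0 were called from day 2 to day 5, 2 in the day 5 media and 0 in the difference of changes. With undetermined wells at 40 cycles, 1 was called from day 2 to day 5 and 0 in the difference of changes. With only the days compared in the fit, 2 were called from day 1 to day 2, 3 in the day 2 media and 8 in the day 5 media, and with all 6 days in 1 fit, 2 in proliferation. With the cluster mean they were 2, 4, 7 and 2 for the first 4 and 2 for the difference of changes, and with the row mean 1, 4, 1 (day 2 against day 1), 8 (day 5 media) and 3 (difference of changes). The shares of all assays called were, in the same order, 7.56%, 51.4%, 52.0%, 27.8% and 6.17% with the cluster mean. With the row mean they were 7.56%, 45.7%, 20.3%, 56.1% and 18.9%. Those after MammU6 and with the row median stand with each comparison above. Shares for the other settings of this paragraph are not given, so those counts are not read as particular to the cluster.

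With row position as a replicate block the counts were 1 (day 1 against day 0), 19 (day 2 against day 0), 16 (day 2 against day 1), 17 (day 5 against day 1), 5 (day 5 against day 2), 5 (proliferation) and 7 (day 5 media). For the first 6 of these the shares of all assays called were 10.9%, 62.1%, 53.1%, 69.5%, 38.1% and 50.8%. Without the block they were 2.10%, 33.3%, 14.5%, 40.7%, 14.2% and 7.44%, so calls rose over the whole plate. All 54 results stayed past the threshold in this fit. With the block and the row median the counts of members were 3, 6, 2 (day 2 against day 1), 7 (day 5 against day 2), 2 (proliferation), 4 (day 2 media) and 4 (difference of changes). For these counts, and for the 7 of the day 5 media, shares of all assays called are not given. They are not read as particular to the cluster. Over 221 assays, deviations of rows with the same position correlated at a median of 0.38 (0.03 to 0.65) between differentiation days, where a row correlated best with its own position in 41 of 48 cases, and of 0.29 (0.25 to 0.38) between proliferation days, in 8 of 8. Across media the same position gave -0.06 to 0.23 on day 2 and 0.06 to 0.14 on day 5.

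With 1 row left out, counts ran from 0 to 0, 5 to 17, 10 to 19, 1 to 7, 5 to 11, 1 to 2, 0 to 3, 3 to 8, 3 to 5 and 1 to 4 in the same order. Shares of all assays called in these fits are not given, so the counts are not read as particular to the cluster. Directions reversed from day 0 to day 5 with the row median, with and without the block, for miR-329 (-0.0025), miR-380-5p (-0.285), miR-381 (-0.04), miR-410 (-0.065) and miR-411 (-0.0375), and from day 1 to day 5 for miR-667 (-0.15). With the cluster mean they reversed for miR-380-5p (-0.0084) and miR-411 (-0.028) from day 0 to day 2, miR-667 from day 1 to day 2 (-0.037) and to day 5 (-0.14), and miR-380-5p from day 0 to day 5 (-0.16). The 4 rows limit the precision, and a Ct past 35 comes from few copies.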
